A study of Mus musculus with 240 samples.

Results

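Potassium channel genes were examined in 3 regions of the mouse brain and in 8 inbred strains. The members were all genes of the deposited log2 table with a symbol that begins with Kcn, apart from Kcnj13 and Kcne2, which were set aside as genes of the choroid plexus. This gave 76 of the 14785 genes of that table. Of the members, 74 encode channel subunits or proteins that bind to them, and 2 (Kcnmb4os2 and Kcnq1ot1) are noncoding RNAs of Kcn loci. The count table held 99 Kcn genes, of which 21 had no log2 values, since they lay below the study's limit on the mean level. Levels are given in CPM, that is, counts scaled to the same total for each library. Together the members took 0.584% of a library's counts in the median. The rule used the name alone within that table, which itself holds only genes above the limit on the mean level.

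Potassium channels let potassium leave the cell, and so hold the resting potential, end the action potential and set how often a neuron fires. Voltage-gated (Kv), calcium-activated (BK and SK), inwardly rectifying (Kir) and tandem pore (K2P) channels differ in what opens them, and the subunits that a neuron expresses shape its firing pattern. Several of them, among them BK, SK, Kv7 and the G protein-gated Kir (GIRK) channels, are known for a response to ethanol or a part in drinking.

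The strains were the founders of the Collaborative Cross: C57BL/6J (B6), A/J (AJ), 129S1/SvImJ (S129), NOD/LtJ (NOD, spelled NOD/ShiLtJ in the study's text), NZO/HILtJ (NZO), the wild-derived WSB/EiJ (WSB), PWK/PhJ (PWK) and CAST/EiJ (CAST). For each strain, 3 females and 3 males that had received no treatment were used, at an age of 8 weeks by the series' design text (the study's methods give a higher age), and every library is from a separate animal or region. The regions were the central nucleus of the amygdala (CeA, 48 libraries), the core of the nucleus accumbens (NAcc, 47 libraries, with 5 for B6 and 6 for each other strain) and the prelimbic cortex (PrL, 48 libraries). B6 and PWK are the strains with high ethanol preference, and the mean of the remaining 6 strains is called Low_Average. No mouse had been given ethanol. Libraries had a median of 24456928 counts (range 14942820 to 33951616).

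Marker genes set the PrL apart from both other regions, and did so less for the CeA and NAcc. Markers of striatal projection neurons had a mean log2 CPM over the list between 5.51 and 9.00 in the NAcc libraries (median 8.17), between 4.37 and 8.96 in the CeA (median 6.43) and between 3.63 and 7.13 in the PrL (median 3.96). All 11 of them were lower in the PrL than in the NAcc, and Penk was the most abundant in the NAcc with a mean of 1184 CPM. Markers of pallial glutamatergic neurons had a median of 6.69 in the PrL, 5.21 in the CeA and 2.26 in the NAcc, and 11 of 12 were higher in the PrL than in the NAcc (the exception, Arpp21, was their most abundant gene in every region). Emx1, a defining marker of those neurons, had a mean of 0.411 CPM in the NAcc. The 12 markers of central amygdala neurons did not set the CeA apart from the NAcc, since 4 were higher and 6 lower in the CeA. All 9 markers of oligodendrocytes were lower in the PrL than in the NAcc (median log2 fold change -1.73), and Cnp, the most abundant, had a mean of 180 CPM in the PrL and 539.5 CPM in the NAcc.

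In all, 15 libraries stood apart from their region by such markers, with a mean marker level more than 5 median absolute deviations from the median of the region. In the CeA, 8 libraries (2 of B6, 2 of S129, 2 of NOD, 1 of NZO and 1 of PWK) carried choroid plexus genes at a mean log2 CPM of 5.05 to 6.91, against a regional median of 0.65. In the NAcc, the library of PWK mouse 48 had pallial markers at 5.79. In the PrL, the libraries of B6 mice 25 and 33 had low pallial markers (5.44 and 5.67) with high striatal markers (5.66 and 5.13), and PWK mouse 40 had striatal markers at 7.13. The PrL libraries of WSB mouse 3 and, by ependymal markers only, of WSB mouse 19 and AJ mouse 21 also stood apart. The counts of called members, the unique DEGs of a strain and the genes named by rule were computed with and without these libraries. For the interaction of strain and region, only the count was repeated, not the tests of single genes. Calls that were lost are given beside the genes described. In the plot of striatal against pallial markers, most PrL libraries lie apart from those of the CeA, but the PrL libraries of B6 mice 25 and 33 lie among CeA libraries. Some CeA libraries lie within the NAcc range of both lists, such as those of PWK mouse 48 (striatal 8.38, pallial 2.46) and AJ mouse 5 (8.96 and 3.22). The rule did not set these 2 apart, as the CeA values were widely spread, so they were kept in every fit.

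**Figure D1:**
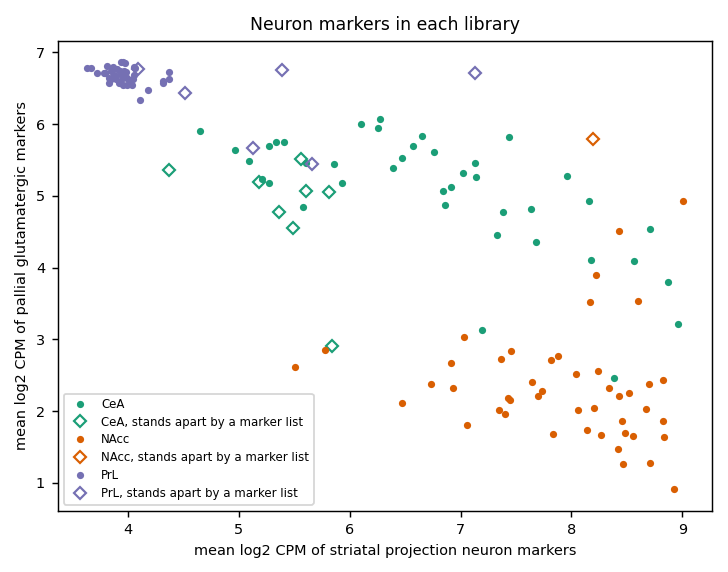
Mean log2 CPM of 11 markers of striatal projection neurons (x axis) against the mean log2 CPM of 12 markers of pallial glutamatergic neurons (y axis), 1 point per library, coloured by region; diamonds are the 15 libraries that stood apart. PrL libraries lie at the upper left (median 3.96 and 6.69) and NAcc libraries at the lower right (median 8.17 and 2.26). The CeA lies between them in the median (6.43 and 5.21), and some CeA libraries lie within the NAcc range of both lists.

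Expression of potassium channel genes differed widely between regions, and most genes were highest in the PrL. In the PrL against the NAcc, 70 of 76 members were called (background 82.4% of all genes tested), 47 of them higher in the PrL (background 38.4%) and 23 lower (background 44.1%). In the CeA against the NAcc, 57 members were called (background 69.1%), 35 higher in the CeA (background 33.2%) and 22 lower (background 35.9%). In the CeA against the PrL, 67 members were called (background 73.9%), 21 higher in the CeA (background 38.8%) and 46 lower (background 35.1%). The calls came from limma-voom with adjustment by Benjamini-Hochberg over all genes and the 3 region contrasts, at a false discovery rate (FDR) of 0.05. A called member is thus not unusual in itself, as most genes of the table were called.

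The sizes of the changes stood further from the background than the number of calls. The median absolute log2 fold change between the PrL and the NAcc was 0.778 over the members and 0.261 over all genes, and the signed medians were 0.406 and -0.027. Called changes of at least 2-fold were found for 32 members (42.1%, background 11.8%). Between the CeA and the NAcc the median absolute values were 0.363 and 0.138, with 6 members at 2-fold or more (background 3.77%), and between the CeA and the PrL they were 0.542 and 0.169, with 13 members (background 6.74%). The highest of the regional means lay in the PrL for 44 members (background 39.5%), in the NAcc for 23 (background 42.3%) and in the CeA for 9 (background 18.3%). Called in all 3 contrasts were 48 members (background 46.4%), and called in none were Kcng3 and Kcns2 (2 members, background 7.67%), silent Kv subunits that have no current of their own. In bulk tissue, fewer cells of a type and less RNA per cell cannot be told apart, and the part of the striatal, pallial and oligodendrocyte markers in these regional differences was not tested.

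**Figure D2:**
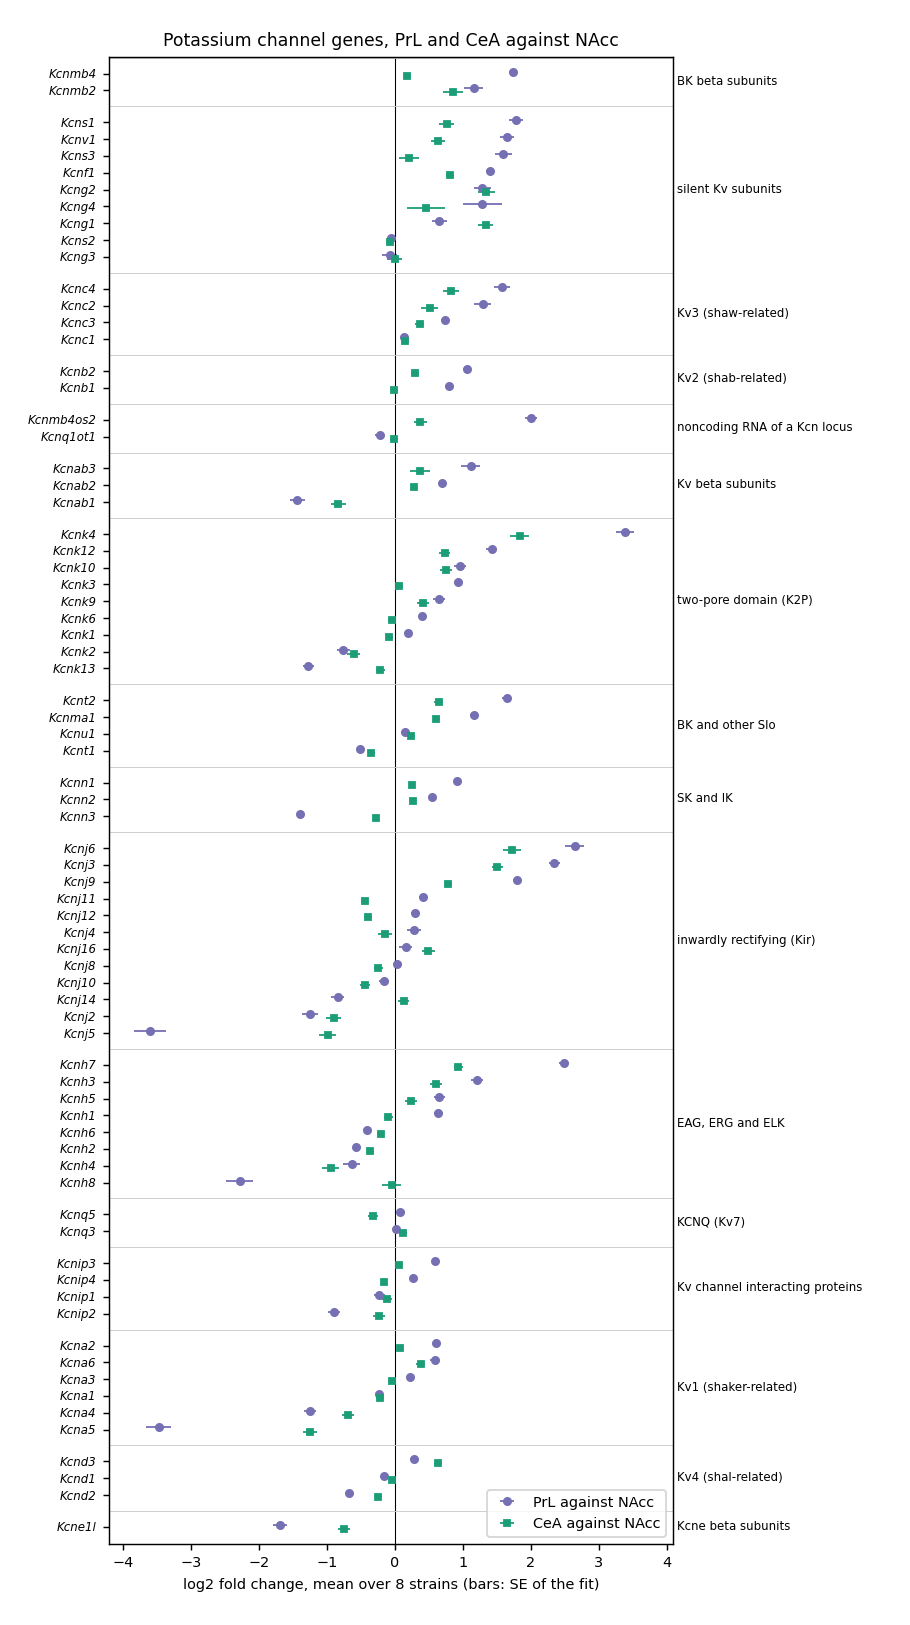
Log2 fold change (x axis) of the PrL and of the CeA against the NAcc for 74 of the 76 members (y axis, grouped by subfamily), with the standard error as a bar; values above 0 are higher than in the NAcc. The widest increase is that of Kcnk4 (3.39 in the PrL) and the widest decreases are those of Kcnj5 (-3.60) and Kcna5 (-3.47), and the CeA values are smaller in size than the PrL values for these genes.

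The GIRK subunits Kcnj3, Kcnj6, Kcnj9 and Kcnj5, which form the channels that G protein-coupled receptors open to quiet neurons, showed the sharpest contrast within a family. The first 3 were highest in the PrL and lowest in the NAcc, and Kcnj5 had the reverse order. Their promoters are shown because these genes of one family moved in opposite directions. The windows are the 250 bases before the start of transcription as RefSeq gives it on build GRCm38.p6 (not the GRCm39 build of the counts), read 5′ to 3′ on the strand of the gene, with matches to 3 promoter motifs in capitals: the GC box (GGGCGG), the TATA box (TATAAA) and the CCAAT box. The cAMP response element (TGACGTCA) was searched as well, and all were searched on both strands. No searched motif overlapped another in these windows. Kcnj3 lies at chr2:55435720-55435969 (plus strand), Kcnj6 at chr16:94997697-94997946 (minus strand, the first of 2 listed starts), Kcnj9 at chr1:172329323-172329572 (minus strand) and Kcnj5 at chr9:32344345-32344594 (minus strand).
Kcnj3: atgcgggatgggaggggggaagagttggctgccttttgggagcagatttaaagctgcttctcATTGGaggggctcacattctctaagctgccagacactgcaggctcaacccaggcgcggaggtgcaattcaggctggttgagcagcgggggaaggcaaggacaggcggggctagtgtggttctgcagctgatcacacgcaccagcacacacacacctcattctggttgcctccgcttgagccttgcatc
Kcnj6: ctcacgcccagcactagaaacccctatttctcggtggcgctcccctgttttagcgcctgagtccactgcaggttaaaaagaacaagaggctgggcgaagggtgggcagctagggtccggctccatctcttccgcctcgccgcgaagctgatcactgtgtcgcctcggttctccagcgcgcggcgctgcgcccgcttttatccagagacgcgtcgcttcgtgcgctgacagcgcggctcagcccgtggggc
Kcnj9: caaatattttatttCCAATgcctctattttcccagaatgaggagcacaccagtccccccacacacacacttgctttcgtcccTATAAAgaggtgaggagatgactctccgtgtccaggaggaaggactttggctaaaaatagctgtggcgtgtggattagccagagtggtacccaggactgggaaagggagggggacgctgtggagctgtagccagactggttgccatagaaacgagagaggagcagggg
Kcnj5: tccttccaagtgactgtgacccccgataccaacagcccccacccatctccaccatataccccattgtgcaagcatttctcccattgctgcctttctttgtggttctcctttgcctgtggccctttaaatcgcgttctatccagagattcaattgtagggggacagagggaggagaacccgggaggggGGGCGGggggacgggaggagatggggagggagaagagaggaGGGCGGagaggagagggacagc

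The Kcnj3 window held a CCAAT on the opposite strand, 188 bases before the start. Kcnj9 held the letters of a TATA box 168 bases and those of a CCAAT box 236 bases before the start. Kcnj5 held 2 copies of the GC box (63 and 22 bases before the start), and Kcnj6 none of these letters. A promoter was listed for 54 of the 76 members. The first listed promoter of each gene was used, for members and for all 27025 genes with a promoter. The GC box was found in 30 members (55.6%, against 32.9% of all) and the CCAAT box in 17 (31.5%, against 34.5%). The TATA box was found in 1, which is Kcnj9 (1.85%, against 13.0%), and the cAMP response element in none (against 1.62%). These matches describe the letters of the windows only.

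Kcnj3 (GIRK1) had a median of 167 CPM in the PrL (range 108 to 203), 102.5 CPM in the CeA (26.5 to 157) and 32.0 CPM in the NAcc (10.5 to 91.9). All PrL libraries lay above all NAcc libraries, and the CeA overlapped both. The log2 fold change was 2.35 (SE 0.08) in the PrL and 1.51 (SE 0.08) in the CeA, against the NAcc (limma adjusted p = 1.56e-53 and 5.61e-36). Kcnj6 (GIRK2) had a median of 41.8 CPM in the PrL (27.2 to 74.2), 27.1 CPM in the CeA (3.92 to 46.7) and 7.67 CPM in the NAcc (1.40 to 33.5). Its groups overlapped, and it was 6.26-fold higher in the PrL and 3.3-fold higher in the CeA than in the NAcc (log2 fold change 2.65, SE 0.13, and 1.72, SE 0.14). Kcnj9 (GIRK3) had a median of 231 CPM in the PrL (114.9 to 286.5), 121 CPM in the CeA (51.3 to 185) and 64.8 CPM in the NAcc (36.8 to 114.5). Its lowest PrL library lay just above its highest NAcc library, and the log2 fold change was 1.80 (SE 0.06). Kcnj5 (GIRK4) went the other way, with a median of 0.597 CPM in the PrL (0.116 to 1.67), 3.72 CPM in the CeA (1.01 to 14.1) and 7.67 CPM in the NAcc (1.52 to 19.5). It was 12.1-fold lower in the PrL than in the NAcc (log2 fold change -3.60, SE 0.23, limma adjusted p = 1.26e-29), though the highest PrL library overlapped the lowest NAcc library. These changes kept their direction and call without the libraries that stood apart, with log2 fold changes of 2.39, 2.72, 1.85 and -3.64 for the PrL against the NAcc.

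Per kilobase of exon, which allows levels to be compared between genes, Kcnj9 and Kcnj3 were the abundant GIRK subunits in the PrL (53.5 and 31.6 CPM per kb), above Kcnj6 (5.69) and Kcnj5 (0.136). In the NAcc the levels per kb were 15.7 for Kcnj9, 6.55 for Kcnj3, 1.66 for Kcnj5 and 1.06 for Kcnj6. Kcnj5 was thus the lowest of the GIRK subunits by mean level in the PrL, and in the NAcc its mean lay above that of Kcnj6. The exon lengths are those of an older annotation (GENCODE M21, build GRCm38), joined by gene identifier. In it, 31.1% of the exon bases of Kcnj3 lie opposite exons of Gm26794. The strand setting of the counts is not given in the sources used here, so reads of both genes may not be fully separated.

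**Figure D3:**
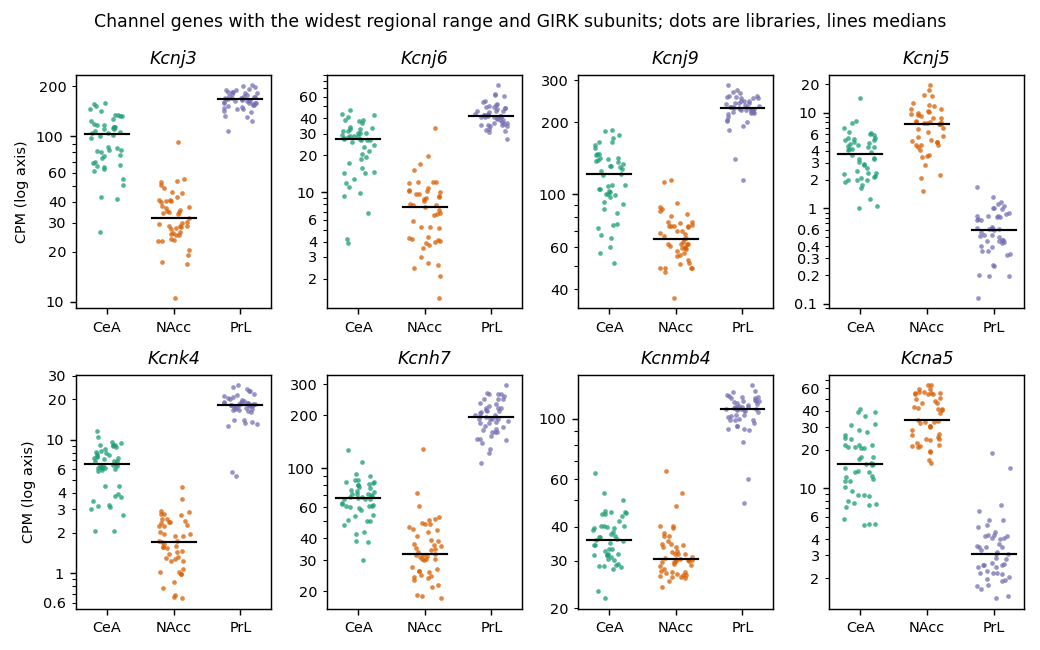
Level in CPM (y axis, log scale) of 8 members in each library of the CeA, NAcc and PrL (x axis), with the median of each region as a bar. Kcnj3, Kcnj6, Kcnj9, Kcnk4, Kcnh7 and Kcnmb4 are highest in the PrL (medians 167, 41.8, 231, 18.2, 194 and 109 CPM), and Kcnj5 and Kcna5 are lowest there (medians 0.597 and 3.07 CPM).

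Among the other Kir channels, the changes were smaller and their directions mixed. Over all 12 Kir members, 6 were higher (background 38.4%) and 4 lower (background 44.1%) in the PrL than in the NAcc. Kcnj2, a strong rectifier that holds the resting potential, had a median of 53.5 CPM in the NAcc, 24.2 CPM in the CeA and 19.7 CPM in the PrL (log2 fold change of the PrL against the NAcc -1.24, SE 0.12). Kcnj4, another strong rectifier, was among the most abundant members per kb in every region (87.7 CPM per kb in the PrL, 79.2 in the NAcc and 68.8 in the CeA). The astrocytic Kcnj10, which clears potassium from around neurons, was highest in the NAcc (median 330 CPM, against 307 CPM in the PrL and 239 CPM in the CeA), whereas its partner Kcnj16 was highest in the CeA (median 41.2 CPM, against 32.1 CPM in the PrL and 31.8 CPM in the NAcc). The called changes of this pair were at most 0.49 on the log2 scale, and the Kcnj16 values of the PrL and NAcc did not pass the test against each other (0.16, SE 0.10). The pore of the ATP-sensitive channel of neurons, Kcnj11, had medians of 42.2 CPM in the PrL, 32.3 CPM in the NAcc and 22.0 CPM in the CeA, and all 3 contrasts were called. Abcc8, the sulfonylurea receptor that assembles with Kcnj11, was also called higher in the PrL (0.77, SE 0.04) and lower in the CeA (-0.19, SE 0.04) than in the NAcc. Kcnj8, the pore of the vascular form, was low (medians of 2.34 to 3.00 CPM) and was lower in the CeA than in both other regions (-0.24 against the NAcc and -0.28 against the PrL), with no call between the PrL and the NAcc.

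The products of the 9 K2P genes carry leak currents. Of these genes, 7 were higher (background 38.4%) and 2 lower (background 44.1%) in the PrL than in the NAcc. Kcnk4 (TRAAK, opened by stretch and lipids) had the largest increase of all members in the PrL over the NAcc, with a median of 18.2 CPM in the PrL (5.29 to 25.4), 6.52 CPM in the CeA (2.05 to 11.5) and 1.72 CPM in the NAcc (0.649 to 4.45). Every PrL library lay above every NAcc library, and it was 10.5-fold higher in the PrL (log2 fold change 3.39, SE 0.13, limma adjusted p = 1.41e-48) and 3.58-fold higher in the CeA (1.84, SE 0.14). Of its exon bases, 13.1% are shared on the same strand with Catsperz, so its level is uncertain to that extent. The K2P genes that were lower in the PrL were Kcnk2 (TREK-1; -0.76, SE 0.09) and Kcnk13 (THIK-1, a channel of microglia; -1.27, SE 0.09). The 11 microglial markers were also lower in the PrL in 10 cases, with a smaller median of -0.28, and their part in the Kcnk13 difference was not tested. Kcnk1, Kcnk3, Kcnk6, Kcnk9, Kcnk10 and Kcnk12 were higher in the PrL by 0.19 to 1.42.

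Kv1 channels, which act at axons and near the spike threshold, were divided. Kcna2 (median 417 CPM in the PrL and 271 CPM in the NAcc), Kcna3 and Kcna6 were higher in the PrL, and Kcna1, Kcna4 and Kcna5 were higher in the NAcc. Kcna5 had a median of 34.0 CPM in the NAcc (15.7 to 63.2), 15.4 CPM in the CeA (5.19 to 41.2) and 3.07 CPM in the PrL (1.40 to 18.8). It fell 11.1-fold from the NAcc to the PrL (log2 fold change -3.47, SE 0.18) and 2.38-fold from the NAcc to the CeA (-1.25, SE 0.11), and among PrL libraries only that of B6 mouse 25 (18.8 CPM), which stood apart, reached the NAcc range. Of the Kv beta subunits, which bind Kv1 channels inside the cell, Kcnab1 was higher in the NAcc (median 337 CPM, against 158 CPM in the CeA and 114 CPM in the PrL), and Kcnab2 and Kcnab3 were higher in the PrL. Kcnab2 had the highest level per kb of all members in the PrL (89.0 CPM per kb), just above Kcnj4.

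All Kv2 and Kv3 genes were called higher in the PrL than in the NAcc (background 38.4%). Both Kv2 genes, the delayed rectifiers of cell bodies, were called (Kcnb2 1.06, SE 0.06). All 4 Kv3 genes, which serve fast spiking, were called higher in the PrL and in the CeA (background 33.2%) than in the NAcc. Among them Kcnc4 changed most (median 114 CPM in the PrL, 74.6 CPM in the CeA and 36.4 CPM in the NAcc, log2 fold change 1.58, SE 0.12) and Kcnc1 least (0.14, SE 0.05). This Kcnc1 call was lost with 144 libraries (limma adjusted p = 0.0504), and Kcnc1 was not called between the CeA and the PrL (0.02, SE 0.05). The A-type Kv4 genes and their calcium-sensing partners went both ways. Kcnd2 was higher in the NAcc (median 193 CPM, against 154 CPM in the CeA and 120 CPM in the PrL, -0.68, SE 0.06), Kcnd1 was slightly higher there (-0.16), and Kcnd3 was highest in the CeA (median 154.5 CPM). Kcnip2, a partner of Kv4 channels, had a median of 253 CPM in the NAcc, 176 CPM in the CeA and 126 CPM in the PrL (-0.89, SE 0.09), whereas Kcnip3 and Kcnip4 were higher in the PrL. The Kcnip2 call between the CeA and the NAcc (-0.23, SE 0.09) was lost without the libraries that stood apart (-0.13, limma adjusted p = 0.198).

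Silent Kv subunits, which form channels only together with Kv2, were mostly higher outside the NAcc. Of 9 genes, 7 were called higher in the PrL than in the NAcc (background 38.4%) and none lower (background 44.1%). In the CeA against the NAcc, 5 were called higher (background 33.2%) and none lower (background 35.9%). Kcns1 had a median of 10.4 CPM in the PrL (6.00 to 50.6), 5.73 CPM in the CeA (1.94 to 15.2) and 3.54 CPM in the NAcc (0.818 to 11.5), with a log2 fold change of 1.79 (SE 0.10). Kcng2 had a median of 7.06 CPM in the CeA (3.72 to 35.3), 7.22 CPM in the PrL (2.87 to 13.0) and 2.90 CPM in the NAcc (1.35 for the CeA against the NAcc, SE 0.12). Its difference between the CeA and the PrL was not called (0.06, SE 0.10) and was -0.09 to 0.15 over the alternatives. Kcng1 had a median of 96.2 CPM in the CeA, 52.2 CPM in the PrL and 33.0 CPM in the NAcc, and was called in all 3 contrasts.

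The EAG, ERG and ELK genes are a branch of the Kv channels that includes the slow ERG currents. They split evenly, with 4 of 8 higher (background 38.4%) and 4 lower (background 44.1%) in the PrL than in the NAcc. Kcnh7 (ERG3) had a median of 194 CPM in the PrL (107 to 294), 68.0 CPM in the CeA (30.0 to 127) and 32.7 CPM in the NAcc (18.3 to 129), with a log2 fold change of 2.49 (SE 0.07). Kcnh8, of the ELK branch, was 4.86-fold lower in the PrL than in the NAcc (-2.28, SE 0.20), but its PrL level was very low (median 0.3925 CPM, 0.0216 to 1.63). Its CeA and NAcc values were alike in median (1.67 and 1.81 CPM) with no call between them (-0.05, SE 0.14). Kcnh4, of the same branch, was highest in the NAcc (median 30.8 CPM), and its call between the CeA (13.1 CPM) and the PrL (17.9 CPM) was lost under 4 of 12 alternatives, with the largest adjusted p (0.398) without the libraries that stood apart. Kcnh2 (ERG1) was also higher in the NAcc (median 68.3 CPM, against 49.2 CPM in the CeA and 43.6 CPM in the PrL).

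Of the Kv7 genes, which carry the M-current, Kcnq3 and Kcnq5 were not called between the PrL and the NAcc, with log2 fold changes of 0.02 (SE 0.06) and 0.08 (SE 0.08). Kcnq5 was called lower in the CeA than in the NAcc (-0.32) and in the PrL (-0.40). Kcnq3 was called slightly higher in the CeA than in the NAcc (0.12, SE 0.06), a call that was lost under 3 of 12 alternatives. Among the calcium-activated channels, Kcnma1 (the BK pore, which ethanol acts on) was called 2.23-fold higher in the PrL than in the NAcc (median 464 against 201 CPM, log2 fold change 1.16, SE 0.05). Its neuronal beta subunit Kcnmb4, which changes how BK responds to ethanol, was called 3.33-fold higher (median 109 against 30.4 CPM, 1.74, SE 0.05), and the CeA (median 35.9 CPM) lay close to the NAcc (0.19, SE 0.05). The small-conductance SK genes Kcnn1 and Kcnn2 were higher in the PrL (0.91 and 0.55, each SE 0.04), and Kcnn3 was lower. Kcnn3 had a median of 30.7 CPM in the PrL (23.0 to 51.0), 67.8 CPM in the CeA (52.4 to 84.4) and 81.3 CPM in the NAcc (62.0 to 115). It was the only member for which all PrL libraries lay apart from all CeA libraries (1 member, background 0.44%), and 1 of 4 for which they lay apart from all NAcc libraries (background 2.25%), with Kcnj3, Kcnj9 and Kcnk4. No member separated the CeA from the NAcc, nor did any gene of the table (background 0%). Among the sodium-activated Slo genes, Kcnt2 was higher in the PrL (1.65, SE 0.06) and Kcnt1 lower (-0.51, SE 0.05). Kcne1l, an inhibitory beta subunit, was highest in the NAcc (median 8.49 CPM, against 5.32 CPM in the CeA and 2.64 CPM in the PrL).

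Channel partners that do not carry a Kcn name showed no common direction between the PrL and the NAcc. Of a list of 42 such genes, 38 were measured. In the PrL against the NAcc, 17 were higher (background 38.4%) and 16 lower (background 44.1%). The median was -0.01, against -0.03 for all genes. In the CeA against the NAcc, 13 were higher (background 33.2%) and 17 lower (background 35.9%). In the CeA against the PrL, 10 were higher (background 38.8%) and 17 lower (background 35.1%). Of 10 regulators of GIRK signalling, 4 were higher in the PrL than in the NAcc, among them Rgs7 (0.82, SE 0.03). Another 5 were lower, among them Rgs2 (-1.24, SE 0.06). The BK gamma subunit Lrrc38 was higher in the PrL (1.39, SE 0.13) and lower in the CeA (-0.33, SE 0.15) than in the NAcc. Akap5, an anchor of Kv7 channels, was lower in the PrL (-1.29, SE 0.10).

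Strain differences were found for most potassium channel genes, in about the same share as for other genes or a lower one. By the F-test among 8 strains, 57 of 76 members were called in the CeA (75%, background 80.7%), 50 in the NAcc (65.8%, background 75.9%) and 61 in the PrL (80.3%, background 84%), with 36 called in all 3 (background 60.6%). With 144 libraries, 32 were called in the NAcc (background 66.5%). Where all 7 contrasts of a strain with the others were called for a gene and had a single sign, the gene is termed a unique DEG of that strain, and the 28 contrasts of a region were adjusted together. There were 4 such members in the CeA (5.26%, background 19.2%), 8 in the NAcc (10.5%, background 17.7%) and 20 in the PrL (26.3%, background 27%). The CeA count was 1 without the libraries that stood apart (background 17.5%) and 11 with sample quality weights (background 26.1%). The NAcc count was 4 with a mean CPM of at least 5 (background 15.6%) and 14 with the weights (background 25.8%). The filter on the mean CPM also takes out members, among them Kcng4, Kcnj14, Kcnk6 and Kcnmb4os2. In all, 23 members were a unique DEG in at least 1 region (background 37.9%), 6 in at least 2 regions for the same strain and sign (background 15.5%) and 2 in all 3 regions (background 8.74%).

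Kcnmb4os2, a noncoding RNA antisense to Kcnmb4, was a unique DEG of CAST in every region. It had in the PrL of CAST a median of 16.6 CPM (15.4 to 18.9), against 4.68 CPM (1.58 to 6.18) in the 42 libraries of the other strains. The CAST libraries of the PrL and CeA lay above all others (in the CeA 4.14 to 6.82 CPM, against 0.554 to 2.84 CPM), and in the NAcc 5 of 6 did (2.80 to 5.29 CPM, against 0.298 to 2.81 CPM). The mean log2 fold change was 1.94 in the PrL, 1.87 in the CeA and 1.74 in the NAcc, and the largest limma adjusted p over the 7 contrasts was 1.77e-13, 1.24e-07 and 0.000115. Kcnmb4 itself, the gene on the opposite strand, was no unique DEG of CAST, with PrL medians of 115 CPM in CAST and of 99.5 to 121 CPM in the other strains. In an older annotation 34.2% of the exon bases of Kcnmb4os2 lie opposite exons of Kcnmb4, and the strand setting of the counts is not given in the sources used here, so reads of both genes may not be fully separated.

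Kcng4, a silent Kv subunit, was nearly absent from the NAcc and PrL of CAST. In the NAcc the 6 CAST libraries had 0 counts in all, which allows 3 counts over the group, against 2209 counts in 41 other libraries, so that Kcng4 was at least 109-fold lower. The unique call in the NAcc was lost under 2 of 9 alternatives (limma adjusted p of up to 0.0764, with 144 libraries). In the PrL there were 7 counts in the CAST libraries (0 to 4 in each) and 3062 counts in 42 others (16 to 167 in each), a 64.3-fold difference without overlap. In the CeA there were 28 counts (1 to 12 in each) against 1803 (3 to 284 in each), an 8.64-fold difference, and Kcng4 was no unique DEG there. Kcnk13 and Kcnq1ot1 were unique in CAST in a single region each. Kcnk13 had a median of 10.9 CPM in the PrL of CAST (10.1 to 12.4), against 4.46 CPM in the other strains (3.05 to 12.8), an increase of 131% (largest limma adjusted p = 0.000715). The CAST libraries were all high, and only the libraries of B6 mouse 25 and PWK mouse 40, both of which stood apart, reached them. In the CeA and NAcc, Kcnk13 medians of CAST were 14.8 and 11.8 CPM, against 7.26 to 13.0 CPM and 11.45 to 16.8 CPM in the other strains. The microglial markers had their lowest PrL mean in CAST (4.78, against 4.90 to 5.32 in the other strains), and their part in the Kcnk13 value was not tested. Kcnq1ot1, a noncoding RNA of an imprinted locus, was down-expressed by 43.1% in the NAcc of CAST (median 15.0 against 22.9 CPM), a call that was lost under 2 of 10 alternatives (limma adjusted p of up to 0.0861, without the tray term).

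**Figure D4:**
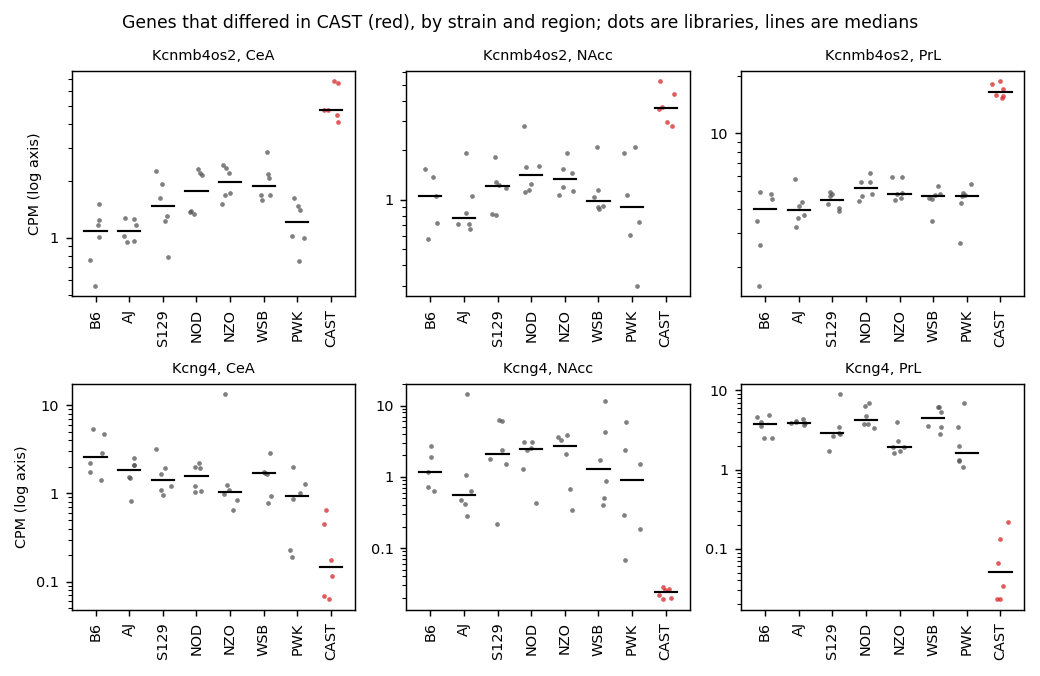
Level in CPM (y axis, log scale, with a prior count of 0.5) of Kcnmb4os2 and Kcng4 in each library, by strain (x axis) and region (panels). CAST libraries are the highest for Kcnmb4os2 in the PrL (15.4 to 18.9 CPM) and the lowest for Kcng4 in the NAcc, where all 6 had 0 counts and are drawn at the prior count.

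In the PrL the 20 members had 21 calls, since Kcnj16 was called in 2 strains, and PWK had 7 of them (background for PWK 9.04%), B6 4 (background 2.89%), CAST 4 (background 10%) and WSB 3 (background 3.37%), with 1 each for AJ (background 1.07%), NOD (background 0.873%) and NZO (background 1.2%) and none for S129 (background 0.92%). The calls of Kcnj16 had opposite directions. Its median was 17.0 CPM in WSB (14.4 to 21.7), 51.1 CPM in PWK (45.5 to 66.7) and 33.6 CPM in the strains other than WSB (20.4 to 66.7). All 6 PWK libraries lay above all others, and 5 of 6 WSB libraries lay below all others. The mean log2 fold change was -0.98 for WSB and 0.84 for PWK (largest limma adjusted p = 1.52e-05 and 2.52e-05). Mean log2 CPM of 12 astrocyte markers was 6.86 in WSB and 6.95 in PWK, within the 6.74 to 7.01 of the other strains. The astrocytic partner of Kcnj16, Kcnj10, was down-expressed by 35.9% in B6 (median 207 CPM, 171 to 267, against 313 CPM, 218 to 580). There, 3 of 6 libraries lay below all others, and the astrocyte markers had a mean of 6.81. The part of the astrocyte markers in these Kcnj16 and Kcnj10 values was not tested.

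Kcnj11 was up-expressed by 66.4% in the PrL of NOD (median 65.4 CPM, 62.4 to 79.4, against 40.8 CPM, 30.9 to 61.5), and all 6 NOD libraries lay above all others. Kcnk6 (TWIK-2) was down-expressed by 45.8% in the PrL of PWK (median 3.04 CPM, 2.12 to 3.51, against 5.39 CPM, 3.517 to 8.38) without overlap, and by 45.3% in the NAcc (median 2.31 against 4.16 CPM). Kcnj6 was up-expressed by 49.7% in the PrL of PWK (median 61.6 CPM, 51.5 to 74.2, against 40.8 CPM, 27.2 to 54.7), with 4 of 6 libraries above all others. Kcnu1, the pH-sensitive Slo3 channel best known from sperm, had a median of 0.590 CPM in the PrL of WSB (0.373 to 0.983) and 1.07 CPM in PWK (0.614 to 1.56), against 3.79 to 4.74 CPM in the other 6 strains. The WSB call (mean log2 fold change -2.50) was lost without the libraries that stood apart (largest limma adjusted p = 0.0833). Both strains were low in the CeA (medians of 0.918 CPM in WSB and 1.196 CPM in PWK) and in the NAcc (0.7096 and 1.14 CPM) as well, whereas the other strains had medians of at least 2.67 CPM.

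Kcna3 was down-expressed in AJ, by 51.4% in the CeA (median 7.31 CPM, 3.86 to 8.71, against 14.6 CPM, 7.85 to 19.2) and by 34.3% in the PrL (median 10.7 against 16.4 CPM). The CeA call was lost without the libraries that stood apart (largest limma adjusted p = 0.0862), none of which was from AJ in the CeA, and the mean log2 fold change was -1.04 with and without them. The PrL call was kept. Kcnn1 was up-expressed in WSB by 45.6% in the NAcc (median 17.0 against 12.0 CPM) and by 21.3% in the PrL (median 29.8 against 24.1 CPM). In the PrL, 0 of 6 WSB libraries lay outside the range of the others, and the Kcnn1 call was lost under 2 of 10 alternatives (limma adjusted p of up to 0.0686, without the tray term). Kcnj14 was down-expressed by 61% in the NAcc of AJ (median 0.795 CPM, 0.524 to 1.35, against 2.04 CPM, 1.03 to 4.29). Kcnk2 was up-expressed by 87.2% in the NAcc of B6, where the 5 libraries had 117, 129, 132, 136 and 222 CPM, against 47.5 to 144 CPM in the other strains. This call rests on the highest library, of mouse 33, without which the largest limma adjusted p was 0.1 (mean log2 fold change 0.76).

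Among the remaining unique calls in the PrL were Kcnf1 and Kcng1 (higher) and Kcnq5 (lower) in B6, Kcnn2 (lower) in NZO, and Kcnk2 and Kcns1 (higher) and Kcnk9 (lower) in PWK. In the CeA, Kcnc2 was lower in AJ. The CeA libraries of AJ had the highest mean of striatal markers (7.63, against 5.26 to 7.01 in the other strains) and a low mean of pallial markers (4.45, against 4.41 to 5.63), and their part in the AJ calls of Kcnc2 and Kcna3 was not tested. The calls of Kcnq5 and Kcnc2 were each lost under 5 of 10 alternatives, and that of Kcnf1 under 4 of 10. Without the libraries that stood apart, Kcng1 and Kcnq5 in B6, Kcnk2, Kcnk9 and Kcns1 in PWK and Kcnc2 in AJ were among those no longer called, and the counts of unique members were 16 in the PrL (background 27.4% in the same fit), 12 in the NAcc (background 17.8%) and 1 in the CeA (background 17.5%). The PrL value of Kcns1 in PWK rested in part on mouse 40, the library with high striatal markers, which had 50.6 CPM, where the next PWK library had 21.5 CPM. The mean log2 fold change was 1.08 with the libraries that stood apart and 0.73 without them.

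**Figure D5:**
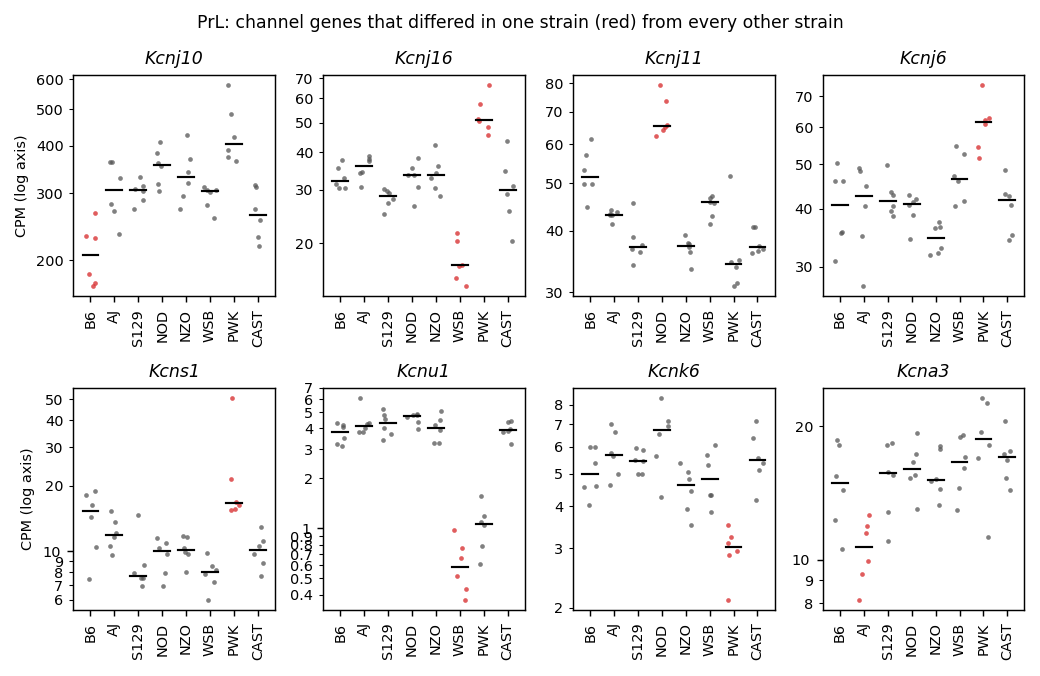
Level in CPM (y axis) of 8 members in each PrL library, by strain (x axis), with the strain of a unique DEG in red. Kcnj16 is low in WSB (14.4 to 21.7 CPM) and high in PWK (45.5 to 66.7 CPM), Kcnj11 is high in NOD (62.4 to 79.4 CPM), and Kcnk6 is low in PWK (2.12 to 3.51 CPM).

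The strains with high ethanol preference were each compared with Low_Average, and the contrasts of B6 and PWK share these 6 strains. For B6, 19 members were called in the CeA (background 41%), 10 higher (background 22.3%) and 9 lower (background 18.7%). There were 22 in the NAcc (background 32.1%), 13 higher (background 17.3%) and 9 lower (background 14.8%). Without B6 mouse 17 the NAcc count was 12 (background 22.5%), with 144 libraries it was 13 (background 24.5%), and with sample quality weights it was 53 (background 48%), so that the members lay below or above the background depending on the setting. With the weights, the CeA count was 33 (background 44.1%). There were 37 in the PrL (background 37.6%), 13 higher (background 18.3%) and 24 lower (background 19.3%). Only 3 members were called in all 3 regions with the same sign (background 10.9%), and each of Kcnj11, Kcnk1 and Kcns1 was higher in B6. Kcnj11 was up-expressed by 69.6% in the NAcc, 48.5% in the CeA and 20% in the PrL. For Kcnj11 in the NAcc the B6 libraries had 45.7, 49.1, 54.3, 58.6 and 63.1 CPM, and 3 of 5 lay above all libraries of the low preference strains, which overlapped the rest. Kcnk1 (TWIK-1) was up-expressed by 34.8%, 31.6% and 19.9% in the same order of regions, and Kcns1 by 211%, 38.1% and 47.1%. B6 also had the highest mean of oligodendrocyte markers in the CeA (7.18, against 5.08 to 6.12 in the other strains) and in the PrL (5.53, against 4.68 to 5.22), of striatal markers in the NAcc (8.67, against 7.31 to 8.41) and of endothelial markers in all 3 regions (4.98, 4.96 and 4.92 in the CeA, NAcc and PrL, against at most 4.59, 4.69 and 4.80). The part of these markers in the B6 values was not tested. For Kcns1 in the NAcc, B6 had 4.41, 8.30, 8.85, 10.3 and 11.5 CPM, and the medians of the low preference strains were 1.26 to 5.07 CPM. The mean of the 12 pallial markers in the NAcc was also highest in B6 (3.22, 1.27 to 4.93 over its libraries, against strain means of 1.91 to 2.93), and their part in the Kcns1 value was not tested. In the PrL, Kcna5 had the largest B6 increase among the genes described here (131%), and Kcnj10 was down-expressed by 32.7%. The striatal markers of B6 mice 25 and 33 were high in the PrL, and without the libraries that stood apart the Kcna5 log2 fold change was 0.65 in place of 1.21, still called. Kcnj5 was down-expressed by 58.7% in the NAcc of B6 (2.10, 2.23, 2.85, 3.43 and 5.59 CPM). In the NAcc, B6 also had the lowest means of thalamic and hypothalamic markers (1.78, against 2.08 to 4.06) and of central amygdala markers (4.60, against 4.93 to 5.55), and WSB had the highest thalamic and hypothalamic mean and the highest median of Kcnj5 (10.6 CPM). The part of these markers was not tested. Kcnj5 was up-expressed by 64.2% in the PrL of B6, where the call was lost under 6 of 10 alternatives, among them leaving out those libraries (limma adjusted p = 0.101) and summing both sequencing runs (0.252, the largest).

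For PWK, 14 members were called in the CeA (background 39.3%), 5 higher (background 20.2%) and 9 lower (background 19.1%). This count was 9 without the libraries that stood apart (background 36.2%), 8 with a mean CPM of at least 5 (background 37%) and 24 with sample quality weights (background 46.7%). The filter on the mean CPM also takes out members, among them Kcng3, Kcnj14, Kcnk6, Kcnmb4os2 and Kcnu1. There were 24 in the NAcc (background 38.7%), 13 higher (background 20%) and 11 lower (background 18.7%), and 31 in the PrL (background 47%), 19 higher (background 23.9%) and 12 lower (background 23.1%). In all 3 regions with the same sign were 7 members (background 22.3%), of which Kcng3, Kcnj10, Kcnj14 and Kcns1 were higher and Kcnk6, Kcnmb4os2 and Kcnu1 lower. Kcng3 was up-expressed by 86.1% in the CeA, by 101% in the NAcc and by 88.4% in the PrL, and CAST, 1 of the low preference strains, had similar medians (5.02, 7.25 and 5.85 CPM in the same order of regions, against 7.42, 8.39 and 6.73 CPM in PWK). Kcnj10 was up-expressed by 44.2%, 47.4% and 40.1%. The mean of the astrocyte markers was highest in PWK in the CeA (7.12, against 6.60 to 7.09 in the other strains) and in the NAcc (7.19, against 6.70 to 7.13), and their part in the Kcnj10 values was not tested. Kcnj14, an inward rectifier, was up-expressed by 53.9%, 61.3% and 116%. Kcnu1 was down-expressed by 62.5%, 58.6% and 66.7%, and no PWK library lay below all low preference libraries, since WSB was lower still. Kcnmb4os2 was down-expressed by 40.3%, 36.7% and 26.3%, and its NAcc call (limma adjusted p = 0.0424) was lost under 5 of 10 alternatives, with an adjusted p of up to 0.238 (edgeR). CAST, 1 of the low preference strains, was high for this gene (medians of 4.76, 3.62 and 16.6 CPM). The PWK medians of Kcnmb4os2 (1.22, 0.899 and 4.72 CPM) lay within those of the other 5 low preference strains (1.09 to 1.97, 0.772 to 1.42 and 3.94 to 5.199 CPM) in each region. Kcnk6 was down-expressed by 32.5%, 44.4% and 46.3%, and in the PrL all 6 PWK libraries lay below all others. Kcns1 was up-expressed by 44.8%, 49.9% and 124%, but the NAcc call was lost under 5 of 11 alternatives, with the largest limma adjusted p (0.294, log2 fold change 0.33) without the libraries that stood apart. The PrL value rested in part on PWK mouse 40, which had 50.6 CPM, where the next PWK library had 21.5 CPM. Kcnj6 was up-expressed by 139% in the NAcc (median 14.5 CPM, 7.67 to 33.5) and by 49.5% in the PrL, and the CeA value was -0.00 (SE 0.27). Without the NAcc library of PWK mouse 48, which had pallial markers at 5.79, the NAcc value of Kcnj6 was 1.02 in place of 1.26, still called. Kcnj11 and Kcnk1, which were higher in B6, were lower in PWK than Low_Average in the NAcc (by 23.6% and 25.4%) and in the PrL (by 17.9% and 20.4%).

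For some channel genes the strain differences themselves differed between regions. The interaction of strain and region was called for 34 of 76 members (44.7%, background 32.7%), and with sample quality weights for 69 (background 68.3%). The lowest p-values were those of Kcnh6 (F = 5.32), Kcnh5 (F = 4.58), Kcnh2 (F = 4.34) and Kcns1 (F = 4.2). These tests of single genes were not repeated under the alternatives, nor were the strain values of Kcnh6 and Kcnh2. Kcnh6 (ERG2) had its highest strain median in PWK in the NAcc (10.1 CPM, 6.80 to 17.0) and its lowest strain median in PWK in the PrL (5.18 CPM, 3.32 to 5.85). Against Low_Average, it was up-expressed in PWK by 22% in the CeA and 37.4% in the NAcc and down-expressed by 20.3% in the PrL. Kcnh5 (EAG2) was lowest in B6 in the PrL (median 16.7 CPM, 8.46 to 20.2) and highest in PWK (46.7 CPM, 26.8 to 59.8), whereas in the CeA the strain medians lay between 17.3 and 21.5 CPM. Kcnh2 had a median of 40.3 CPM in the NAcc of B6, where the 5 libraries ranged from 38.8 to 71.3 CPM, and 88.4 CPM in NZO (74.4 to 97.5), and the PrL medians of all strains lay between 40.0 and 50.8 CPM. Kcns1 was lowest in CAST in the CeA and NAcc (medians of 2.99 and 1.26 CPM), and in the PrL CAST (10.1 CPM) lay within the other strains (7.73 to 16.6 CPM).

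No member was called between the sexes by limma-voom in any region (background 0.135% for the CeA, 0.0812% for the NAcc and 0.0947% for the PrL). The smallest limma adjusted p of a member was 0.272 for the CeA, 0.914 for the NAcc and 0.55 for the PrL.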

How the data were processed

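Libraries of poly(A) RNA (stranded TruSeq kit) from 48 mice were aligned by the authors with STAR 2.7.3a to GRCm39 and counted per gene (Ensembl annotation). Reads of every strain were aligned to the same reference with at most 3 mismatches per 100 bases, which could lower the counts of genes that differ in sequence between strains. This was not tested. The deposited counts are whole numbers without normalization (240 columns, as trays 2 and 3 were sequenced again), and 0 columns were left unmapped. The deposited log2 values are log2 CPM with TMM factors (trimmed mean of M-values), which the authors gave for 143 libraries and the 14785 genes with a mean CPM from 1 upward and counts up to 50000. The NAcc library of B6 mouse 1 was left out by the authors. Log2 values recomputed from the counts of the same libraries differed by at most 5e-06, and CPM per library given here are these log2 values taken back to a linear scale.

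The model was that of the study, limma-voom (R 4.3.3, limma 3.58.1, edgeR 4.0.16) with strain, sex and tray in each region, TMM factors and a prior count of 0.5. Regions were compared in the same way over all 143 libraries with 24 groups of strain and region, as a mean over 8 strains. All tests ran over all 14785 genes with Benjamini-Hochberg adjustment and a threshold of 0.05, together over the 28 strain contrasts, the 3 region contrasts, or the contrasts of B6 and PWK with Low_Average. A floor of 3 counts was used for bounds on folds. The precision of a value is shown by its SE, and by its range over libraries. The scripts were tested on simulated data.

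The members and lists were chosen with earlier results of these data known. Named genes were, by rule, the 4 largest called changes in each direction per region contrast, the widest member of each subfamily, unique DEGs of a strain in at least 2 regions and the largest in each region, members called in all regions for B6 or PWK and the largest in each contrast, the 4 lowest p-values for interaction, and 18 members with a known role (46 members in all). Kcnmb1, on the same list, had no log2 values and is no member. The values of 2 members and of 1 gene of the partner list are not reported here, but all counts include them. Others are named with their subfamily or list and were chosen after their values were seen. Exon lengths and overlaps are from GENCODE M21 (GRCm38), and promoters from RefSeq (GRCm38.p6).

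The results were repeated with DESeq2 1.42.0, with the quasi-likelihood test of edgeR, another normalization, other filters, no tray term, 144 libraries, summed runs, sample weights, a replicate block, other adjustment, leaving out each B6 library of the NAcc, and, added after seeing the data, leaving out libraries that stood apart by markers. Regions are paired by mouse, from the mouse numbers of the labels. The correlation of residuals between regions of the same mouse had a median of 0.0552 for the CeA with the NAcc, 0.0257 for the CeA with the PrL and 0.00961 for the NAcc with the PrL.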

Additional observations from a re-analysis of the deposited data

Results flagged for a closer look

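Each of the 33 unique calls of a gene in a strain and region rests on a group of 6 or 5 libraries. For 2 of these calls a library lay far from the rest. Chance gives about 1 in 20, so this number is close to that given by chance. The same libraries recur among the calls. In the NAcc of B6, the Kcnk2 level of mouse 33 was the highest of 5 (222 CPM, next 136 CPM), and its gap to the next library was 0.765 of the whole range. In the PrL of PWK, the Kcns1 level of mouse 40 was the highest of 6 (50.6 CPM, next 21.5 CPM), with a gap of 0.721 of the range, and this library also carried striatal markers at a mean log2 CPM of 7.13 against a median of 3.96 in the PrL.

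Strain effects differed between regions, by the interaction test, for Kcnh6 (F = 5.32), Kcnh5 (F = 4.58), Kcnh2 (F = 4.34) and Kcns1 (F = 4.2), with the lowest p-values of the members.

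Outside the log2 table, 8 of 21 Kcn genes had over 3 counts in most of the libraries. They were Kcnd3os, Kcne4, Kcnmb1, Kcnk5, Kcnq1, Kcnrg, Kcnn4 and Kcne3, with mean levels of 0.207 CPM (Kcne3) to 0.881 CPM (Kcnd3os). Kcnmb1, the BK beta subunit best known from smooth muscle, had a mean of 1.02 CPM in the NAcc, 0.862 CPM in the CeA and 0.426 CPM in the PrL.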

How the results depend on the processing

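No called change turned direction under any alternative that was run, but 32 values of single genes that were not called in either fit changed sign (at most 0.198 on the log2 scale after the change). Of 206 counts of called members, 193 stayed within 1.5 times the value reported, and of 2559 values of single genes 2454 kept their side of the threshold, 78 lost and 27 gained a call. In what follows, the share of all genes called in the same fit is given in parentheses. With sample quality weights, 69 members were called for the interaction of strain and region (68.3%), 11 in the CeA (26.1%) and 14 in the NAcc (25.8%) as unique DEGs, 33 in the CeA (44.1%) and 53 in the NAcc (48%) for B6 against Low_Average and 24 in the CeA (46.7%) for PWK against Low_Average. With a mean CPM of at least 5, there were 8 for PWK against Low_Average in the CeA (37%) and 4 unique DEGs in the NAcc (15.6%), where fewer genes and fewer members are tested. With 144 libraries, 32 were called among strains (66.5%) and 13 for B6 against Low_Average (24.5%) in the NAcc. Without the libraries that stood apart, there were 1 unique DEG (17.5%) and 9 members for PWK against Low_Average (36.2%) in the CeA. Leaving out a B6 library of the NAcc gave 12 (without mouse 17, 22.5%) to 28 (without mouse 25, 33%) members for B6 against Low_Average and 7 (16.6%) to 9 (17.8%) unique DEGs in the NAcc. Apart from the filter, the causes were not tested.

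With mouse as a replicate block (correlation 0.0476), the region contrasts gave 70, 57 and 67 members as before (82.8%, 69.7% and 74.4%). The interaction gave 39 (37.6%), and no region call changed for the named genes that were refitted. The edgeR counts for the region contrasts were 69, 57 and 65 (82.4%, 69.3% and 74.3%), and DESeq2 gave 69, 57 and 65 (82.6%, 69.7% and 74.5%). The Kcng4 call of CAST in the NAcc was lost without the tray term (adjusted p = 0.0672) and with 144 libraries (0.0764), and the Kcnk2 call of B6 in the NAcc with 144 libraries (0.264). The B6 call of Kcnf1 in the PrL was lost with 4 alternatives (adjusted p up to 0.0653), and the call of Kcnc1 between the PrL and the NAcc with 144 libraries (0.0504). Genes under about 1 CPM, such as Kcnj5 in the PrL, rest on few counts per library.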
